A study of Mus musculus with 9 samples.

Results

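Transcript levels of 10 genes of the interleukin-1 (IL-1) family and the inflammasome were examined in BV2, a mouse microglial cell line made by oncogene immortalization. They were taken by symbol: Il1a, Il1b, Il18, Il1rn, Il1rap, Casp1, Casp4, Nlrp3, Pycard and Gsdmd, 10 of the 55906 entries of the deposited table. The 9 RNA-seq libraries were of wild-type BV2 cells given lipopolysaccharide (LPS) together with an agent labelled Pilo (LPS+Pilo), given LPS alone (LPS), or labelled Control with no treatment named, with 3 libraries each. The sources used here give neither dose nor duration for either agent. The labels number the libraries as biological replicates of 1 cell line without stating separate cultures, so p-values measure the spread between these libraries, which may be technical.

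IL-1 alpha and IL-1 beta are cytokines that signal through the IL-1 receptor and its accessory chain, and the receptor antagonist encoded by Il1rn occupies that receptor without signalling. IL-1 beta and IL-18 are made as inactive precursors. In the canonical inflammasome a sensor such as NLRP3 recruits the adaptor ASC, the product of Pycard, which activates caspase-1; caspase-1 then cleaves both precursors and gasdermin D, whose fragment forms pores in the plasma membrane. In mice the product of Casp4, caspase-11, is activated by LPS inside the cell and cleaves gasdermin D directly. In microglia and macrophages LPS is widely used to prime this system by raising transcripts of its components.

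The regions around the annotated transcription starts are shown first for the 4 members called higher with LPS in the test below and for Il1a, whose LPS libraries lay above every Control library; where a gene has several starts, 1 is shown, the one with a match or, for Casp4, the first of 2. Each stretch runs from 250 bases before to 50 bases after a start in RefSeq (build GRCm38.p6; the authors' processing used GRCm39, and no position comes from their file), read 5′ to 3′ on the gene's strand. Capitals mark matches, on either strand, to the NF-kB consensus or to the AP-1 motif TGANTCA.
Casp4, chr9:5308599-5308898 (+ strand): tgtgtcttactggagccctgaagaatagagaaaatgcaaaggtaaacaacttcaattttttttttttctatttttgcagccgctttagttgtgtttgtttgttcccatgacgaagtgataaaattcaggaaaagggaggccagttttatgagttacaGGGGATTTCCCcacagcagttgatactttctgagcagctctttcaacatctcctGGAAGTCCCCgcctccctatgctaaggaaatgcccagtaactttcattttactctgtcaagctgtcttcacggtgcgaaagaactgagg
Nlrp3, upstream start, chr11:59541319-59541618 (+ strand): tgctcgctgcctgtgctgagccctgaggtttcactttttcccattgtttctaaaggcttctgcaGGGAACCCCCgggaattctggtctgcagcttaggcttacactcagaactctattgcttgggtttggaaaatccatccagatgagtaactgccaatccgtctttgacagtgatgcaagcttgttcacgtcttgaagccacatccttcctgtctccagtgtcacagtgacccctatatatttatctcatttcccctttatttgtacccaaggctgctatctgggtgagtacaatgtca
Il1rn, upstream start, chr2:24336610-24336909 (+ strand): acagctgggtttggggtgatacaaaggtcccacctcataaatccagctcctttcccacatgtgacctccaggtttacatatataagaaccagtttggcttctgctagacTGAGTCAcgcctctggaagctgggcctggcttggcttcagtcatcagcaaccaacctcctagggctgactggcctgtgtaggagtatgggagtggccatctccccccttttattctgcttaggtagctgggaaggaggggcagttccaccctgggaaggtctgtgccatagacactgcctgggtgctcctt
Il1a, chr2:129309923-129310222 (- strand): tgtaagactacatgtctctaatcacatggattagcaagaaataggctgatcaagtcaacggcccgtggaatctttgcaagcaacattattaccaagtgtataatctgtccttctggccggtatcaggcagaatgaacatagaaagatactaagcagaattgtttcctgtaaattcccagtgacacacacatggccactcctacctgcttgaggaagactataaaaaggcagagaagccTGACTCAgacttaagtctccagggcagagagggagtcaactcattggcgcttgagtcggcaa
Il1b, chr2:129371090-129371389 (- strand): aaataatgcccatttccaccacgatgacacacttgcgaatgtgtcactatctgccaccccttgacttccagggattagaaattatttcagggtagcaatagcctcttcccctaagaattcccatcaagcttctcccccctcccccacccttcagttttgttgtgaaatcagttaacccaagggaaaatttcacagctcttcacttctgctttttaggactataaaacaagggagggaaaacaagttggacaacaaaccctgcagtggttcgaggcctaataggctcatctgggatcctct
The Casp4 stretch held 3 matches to the NF-kB consensus: GGGGATTTCC and GGGATTTCCC, which overlap, starting 93 and 92 bases before the start, and GGAAGTCCCC, starting 39 bases before it. The upstream of the 2 Nlrp3 starts held 1, GGGAACCCCC, starting 186 bases before it, and the other start held no match. Il1rn and Il1a each held 1 AP-1 match, TGAGTCA starting 141 bases before the upstream Il1rn start and TGACTCA starting 12 bases before the Il1a start. The other 2 of the 3 Il1rn starts held no match to either motif. In Il1b neither motif was found in this window. Over all 32841 promoters of the same length, 8.46% held the NF-kB consensus and 7.81% held TGANTCA. Of the 9 members with an entry, 2 held the NF-kB consensus and 2 the AP-1 motif in at least 1 of their 13 promoters; over all 27018 genes these shares were 9.55% and 8.98%. Gsdmd had no entry. The motifs were chosen after these sequences were seen, so the member counts cannot be read as an excess over those shares. Such matches describe letters, not bound sites.

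Levels are given as TPM, the share of transcripts in a library after correction for transcript length, so they can be compared between genes. Gsdmd and, with LPS, Il1rn were the most abundant, Nlrp3 and Casp1 were intermediate, Il18, Casp4 and Il1b were low, and Il1a, Il1rap and Pycard were at the bottom. The order depended on the group: Il1rn averaged 103 TPM in LPS+Pilo and 106 TPM in LPS but 12.6 TPM in Control, below Gsdmd there. Casp4 and Il18 overlapped in LPS+Pilo and in LPS libraries, whereas in Control Il18 was higher, at 3.31 to 5.26 TPM against 0.65 to 0.89 TPM for Casp4. Nlrp3 and Casp1 overlapped in level in LPS and in Control libraries but not in LPS+Pilo libraries, where Nlrp3 was higher.

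**Figure D1:**
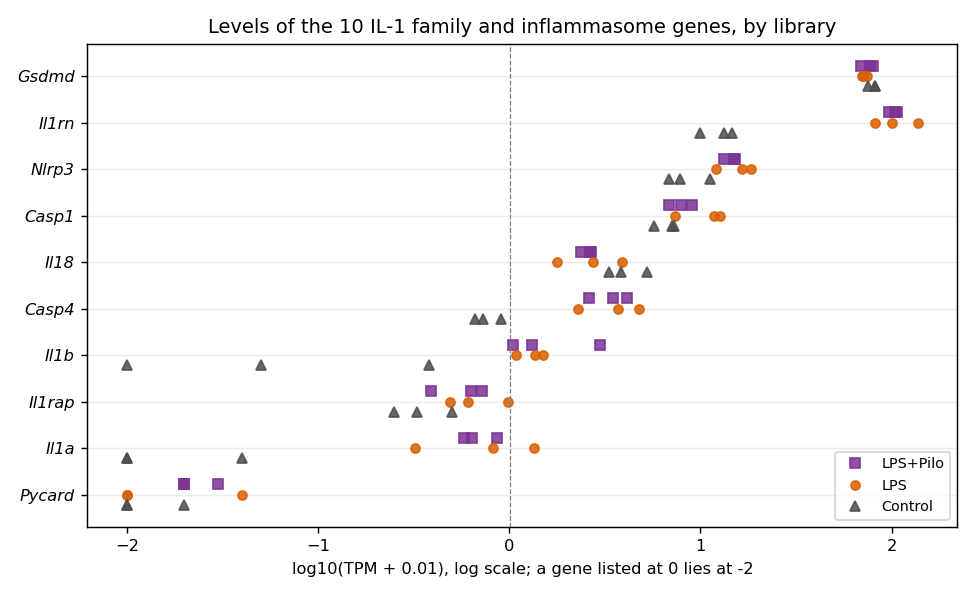
Level of each gene in each library on a log10(TPM + 0.01) scale, with squares for LPS+Pilo, circles for LPS and triangles for Control; genes are ordered by their mean over the 9 libraries, points at -2 are listed at 0 and the dashed line marks 1 TPM. Gsdmd points lie together whereas the Control points of Il1rn, Casp4, Il1b and Il1a lie left of the others, and Pycard lies near the left edge in every group.

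LPS replicate 3 and Control replicate 1 lay at opposite ends of the second principal component of all tested genes (21.5 and -34.0), which crossed the groups, while correlations of log2(TPM + 1) were 0.971 to 0.986 within groups and 0.961 to 0.983 between them. LPS replicate 3 had the lowest value of the LPS libraries for 7 of the 10 members, and Control replicate 1 the highest of the Control libraries for 5. Other libraries had like counts: LPS+Pilo replicate 1 was highest in its group for 6, LPS replicate 1 highest for 5 and Control replicate 2 lowest for 5. The part of these libraries in the results was not tested beyond leaving each of them out. Sequencing depth is unknown. Of 11 microglia and macrophage markers 9 averaged at least 0.5 TPM, the abundant Spi1 and Cd68 among them. Aif1, also counted there, was low, at 0.22 to 0.78 TPM in LPS+Pilo, 0.07 to 1.1 TPM in LPS and 0.89 to 1.36 TPM in Control libraries. P2ry12 did not exceed 0.4 TPM. C1qa, the other marker under 0.5 TPM, was at 0 to 0.1 TPM in LPS+Pilo, 0.06 to 0.24 TPM in LPS and 0.62 to 1.28 TPM in Control libraries. In the test described below, the 9 other markers moved in both directions: Itgam was called higher in LPS (35.4 TPM) and in LPS+Pilo (30.3 TPM) against Control (10.9 TPM), Fcgr3 was called lower in LPS (61.3 TPM) and in LPS+Pilo (59.4 TPM) against Control (97.6 TPM), and Csf1r and Cx3cr1 were called lower in LPS+Pilo against Control. None was called between LPS+Pilo and LPS. Still, every LPS+Pilo library was below every LPS library for Cx3cr1, Csf1r and Spi1, while the other tested markers overlapped. Over all genes tested 12.2% did not overlap in either direction. Cx3cr1 differed by -0.87 (limma, adjusted p = 0.265; 95% interval -1.27 to -0.48). The differences were -0.37 for Csf1r (0.502; -0.62 to -0.13) and -0.18 for Spi1 (0.598; -0.32 to -0.03). The 11 markers summed to 1364 to 1428 TPM in LPS+Pilo, 1416 to 1508 TPM in LPS and 1552 to 1692 TPM in Control libraries, and their part in the results was not tested. Markers of other cell types numbered 24, and 22 had a mean below 0.5 TPM; the exceptions were Mbp and the tubulin gene Tubb3, which was at 383 to 457 TPM in LPS+Pilo, 306 to 403 TPM in LPS and 164 to 367 TPM in Control libraries while the neuronal genes Rbfox3 and Snap25 were listed at 0 throughout. In bulk RNA fewer cells expressing a gene and less RNA of it per cell cannot be told apart.

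The first question was which components LPS changed. The antagonist gene Il1rn rose most among the tested members on the log2(TPM + 1) scale, on which changes of low genes are understated, the ligand gene Il1b, the caspase gene Casp4 and the sensor gene Nlrp3 also rose, Casp1, Il18 and Gsdmd did not pass the test, and Pycard was barely detected. Genes reaching 1 TPM in 3 or more libraries were tested with limma on log2(TPM + 1) and called at a Benjamini-Hochberg adjusted p under 0.05; 7 of the 10 members passed this filter. Of these 7, 4 were called higher, 0 were called lower and 3 were not called with LPS, where 4.12% of all 11260 genes tested were called higher and 3.64% lower. The calls of Il1b and Nlrp3 were lost in 6 and 9 of 16 alternative fits, and those of Il1rn and Casp4 in 0. At an unadjusted p under 0.05 (limma) 5 of the 7 were higher and 0 lower. The share of all genes tested past this unadjusted threshold was not computed. Such unadjusted counts, here and below, therefore have no background and are description only. Il1b and Casp4 reached 1 TPM only in libraries given LPS, so that these 2 could enter the test only if they were higher there, and the count of called members is not evidence about the group.

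The antagonist gene Il1rn had 137.2, 99.94 and 81.39 TPM in LPS replicates 1 to 3, against 13.21, 14.58 and 9.94 TPM in Control. The lowest LPS library was more than 5 times as high as the highest Control library. Means were 106 ± 28.4 TPM in LPS and 12.6 ± 2.38 TPM in Control (SD, n = 3 each), a log2(TPM + 1) difference of 2.96 ± 0.19 (SE; limma, adjusted p = 1.91e-05), and the call held in all 16 alternatives run.

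The ligand gene Il1b had 1.49, 1.35 and 1.08 TPM in LPS, against 0.37, 0.04 and 0 TPM in Control. Every LPS library lay above every Control library, yet all stayed below 2 TPM. The difference was 1.03 ± 0.25 (SE; limma, adjusted p = 0.0366), and it missed the threshold in 6 of 16 alternatives, with an adjusted p of 0.105 without Control replicate 2, 0.138 without Control replicate 3, 0.113 without LPS replicate 1, 0.106 without LPS replicate 2, 0.0546 without LPS+Pilo replicate 3 and 0.0803 with no filter (range 0.0118 to 0.138). With a pseudocount of 0.1 in place of 1 the difference was 2.90, since Control lies near 0. Il1a, the gene of the other IL-1 receptor agonist, had 1.34, 0.81 and 0.31 TPM in LPS, against 0.03, 0 and 0 TPM in Control. The groups did not overlap, but too few libraries reached 1 TPM for a test; with no filter the difference was 0.81 (limma, adjusted p = 0.0661). Il18, whose precursor is constitutively present in many macrophages, had 1.77, 2.73 and 3.9 TPM in LPS, against 3.81, 3.31 and 5.26 TPM in Control. The groups overlapped and the difference of -0.45 ± 0.22 (SE) was not called (limma, adjusted p = 0.265; 95% interval -0.95 to 0.05).

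The ratio of antagonist to agonist transcripts was read within each library, as Il1rn TPM over the sum of Il1a and Il1b TPM. It was 48.5, 46.3 and 58.6 in LPS libraries. In Control it was 33.0 in replicate 1 and 364 in replicate 2, where the agonist sum was 0.04 TPM, and it could not be formed in replicate 3, where both agonists were listed at 0. Antagonist transcripts thus outnumbered agonist transcripts in every library with a ratio, and the Control ratios are too scattered for a comparison. Il18 transcripts outnumbered Il1b transcripts in Control, 10.3-fold in replicate 1 and 82.8-fold in replicate 2, while the Il18 to Il1b ratio was 1.19, 2.02 and 3.61 in LPS libraries.

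The 2 inflammatory caspase genes are neighbours on chromosome 9. Casp4 had 3.68, 4.75 and 2.27 TPM in LPS, against 0.72, 0.65 and 0.89 TPM in Control, without overlap. The difference was 1.35 ± 0.22 (SE; limma, adjusted p = 0.00599), or 2.05 with a pseudocount of 0.1, and the call held in all 16 alternatives. Most of these kept the filter, which Casp4 passed only through libraries given LPS. With no filter the adjusted p was 0.0245 (limma). Casp1 had 7.35, 12.6 and 11.71 TPM in LPS, against 5.72, 7.27 and 7.11 TPM in Control. LPS replicate 1 exceeded the highest Control library by less than 0.1 TPM, and the difference of 0.56 ± 0.20 (SE) was not called (limma, adjusted p = 0.131; 95% interval 0.11 to 1.01). Without LPS replicate 1 it was 0.78 and was called (limma, adjusted p = 0.0360), the 1 of 16 alternatives to do so. The Casp4 to Casp1 ratio was 0.501, 0.377 and 0.194 in LPS libraries, against 0.126, 0.0894 and 0.125 in Control libraries. Casp1 stayed the more abundant of the pair in every library. Because the 2 genes are paralogs and the treatment of reads with several matches is not given, some reads may be assigned to the wrong one. Casp12, their neighbour, was listed at 0 in all 9 libraries.

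Nlrp3, the sensor gene, had 18.48, 16.41 and 12.12 TPM in LPS, against 11.27, 6.83 and 7.78 TPM in Control. LPS replicate 3 and Control replicate 1 were within 1 TPM of each other, though the groups did not overlap. The difference was 0.80 ± 0.20 (SE; limma, adjusted p = 0.0373), a ratio of mean TPM of 1.82. It was not called in 9 of 16 alternatives. Leaving out 1 library gave 0.0630, 0.0641 and 0.0617 without LPS+Pilo replicates 1, 2 and 3, 0.126 and 0.124 without LPS replicates 1 and 2, and 0.115 and 0.141 without Control replicates 2 and 3. The other 2 were no filter (0.0842) and a fit of only the 2 groups (0.112), so that the adjusted p ranged from 0.00693 to 0.141.

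The adaptor gene Pycard had 0, 0.03 and 0 TPM in LPS, against 0.01, 0 and 0 TPM in Control, and no library of any group exceeded 0.03 TPM. The table also holds 492 entries of assembled transcripts (MSTRG identifiers) without positions, so whether reads of the Pycard locus were assigned to 1 of them was not tested. Gsdmd, the gene of the pore-forming substrate, had 73.98, 70.96 and 69.7 TPM in LPS, against 81.71, 75.02 and 81.78 TPM in Control. Every LPS library was lower than every Control library, but the difference of -0.15 ± 0.08 (SE) was not called (limma, adjusted p = 0.331; 95% interval -0.34 to 0.04). Il1rap, the accessory chain shared by several receptors of the family, was at 0.48 to 0.97 TPM in LPS and 0.24 to 0.49 TPM in Control, overlapped and was not tested.

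In all, 6 of the 10 members had LPS libraries wholly above Control and 1 had them wholly below. Over all genes tested the shares were 11.2% and 13.1%. The 6 include Il1a, which was not among the genes tested, and Il1b and Casp4, which passed the filter only through libraries given LPS. These shares are therefore not a like background, and the count is not evidence about the group.

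**Figure D2:**
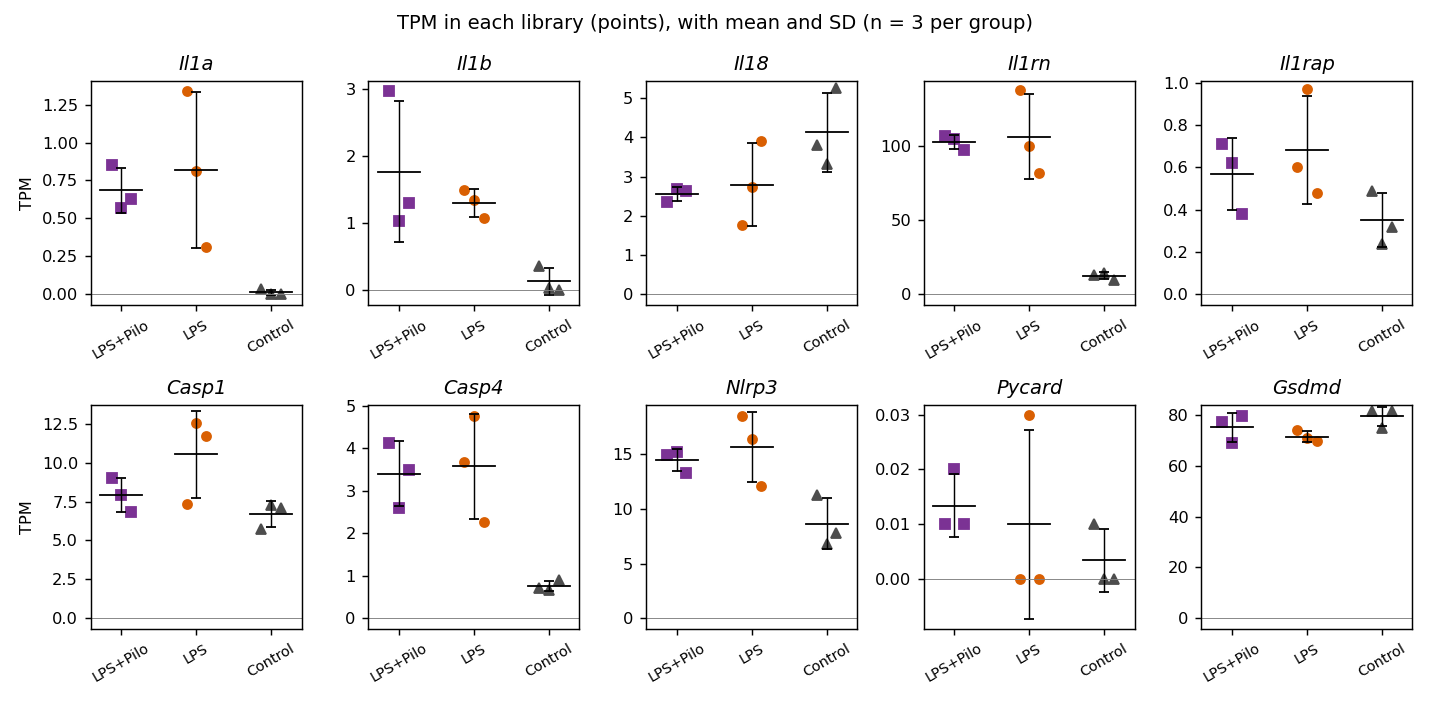
TPM of each of the 10 genes in each library (points), with the group mean (horizontal line) and SD (bar), for LPS+Pilo, LPS and Control from left to right on linear axes. Il1rn, Casp4, Il1b and Il1a are low in the 3 Control libraries, Gsdmd is near 70 to 80 TPM in every group, and the Pycard axis ends near 0.03 TPM.

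The second question was whether Pilo altered these transcripts in LPS-treated cells. None of the 7 tested members was called in either direction (0 at an unadjusted p under 0.05 in limma, and 0 in each of the 16 alternatives), where 0.0444% of all genes tested were called. None of the 10 had LPS+Pilo libraries wholly above or below LPS libraries, against 12.2% of all genes tested. The median difference of the 7 was -0.03, against -0.05 over all genes tested. The 95% intervals show which sizes these libraries leave possible.

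Il1rn had 106.45, 104.29 and 97.05 TPM in LPS+Pilo, inside the range of the LPS libraries given above. The difference was -0.02 ± 0.19 (SE; limma, adjusted p = 0.994), with a 95% interval of -0.44 to 0.40. Casp4 had 4.12, 2.59 and 3.49 TPM in LPS+Pilo, also inside the LPS range, and differed by -0.03 (interval -0.53 to 0.47). Nlrp3 had 14.9, 15.18 and 13.31 TPM and differed by -0.09 (interval -0.53 to 0.35). The LPS+Pilo means of these 3 genes were 0.966, 0.953 and 0.923 of the LPS means.

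Il1b had 2.97, 1.03 and 1.31 TPM in LPS+Pilo. Replicate 1 was above all LPS libraries, and replicate 2 was below all of them. The difference was 0.20 ± 0.25 (SE; limma, adjusted p = 0.917; interval -0.36 to 0.77). Its direction rested on replicate 1, without which the difference was -0.09, and it was 0.40 without LPS+Pilo replicate 2. The differences of Il18, Il1rn, Casp4 and Nlrp3 also changed sign, uncalled, in at least 1 alternative. Il1a had 0.85, 0.57 and 0.63 TPM and Il18 2.36, 2.68 and 2.63 TPM in LPS+Pilo, inside their LPS ranges; Il18 differed by -0.06 (interval -0.56 to 0.44). The ratio of Il1rn to the agonist sum was 27.9, 65.2 and 50.03 in LPS+Pilo libraries, a range that holds all 3 LPS ratios, and its low value belongs to the library with the high Il1b. In LPS+Pilo replicates 1 to 3 the Il18 to Il1b ratio was 0.795, 2.60 and 2.01, and the Casp4 to Casp1 ratio was 0.457, 0.328 and 0.51. LPS+Pilo replicate 1 was the only library with more Il1b than Il18 transcripts.

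Casp1 had 9.02, 7.9 and 6.85 TPM in LPS+Pilo. Its mean was 7.92 ± 1.09 TPM in LPS+Pilo and 10.6 ± 2.81 TPM in LPS (SD, n = 3 each). The difference of -0.35 ± 0.20 (SE; limma, adjusted p = 0.794; interval -0.79 to 0.10) was not called, and the groups overlapped through LPS replicate 1. Gsdmd had 77.15, 68.86 and 79.55 TPM in LPS+Pilo and differed by 0.07 (interval -0.12 to 0.26), the narrowest interval of the 7. Pycard, at 0.01, 0.02 and 0.01 TPM, and Il1rap, at 0.71, 0.62 and 0.38 TPM in LPS+Pilo, were not tested.

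LPS+Pilo was also set against Control; this comparison shares its libraries with both others, so it is no separate evidence for them. Of the 7 tested members 3 were called higher, 0 lower and 4 were not called, where 4.85% of all genes tested were called higher and 5.3% lower. At an unadjusted p under 0.05 (limma) 4 were higher and 1 lower, again without a share over all genes. Casp4 and Il1b entered the test only through libraries given LPS, so here too the count of called members is not evidence about the group. Il1rn rose by 2.95 ± 0.19 (SE; limma, adjusted p = 1.60e-05), Casp4 by 1.31 ± 0.22 (0.00565) and Il1b by 1.24 ± 0.25 (0.0133); with a pseudocount of 0.1 Casp4 differed by 2.02 and Il1b by 3.18. Il1b was not called without Control replicate 3 (adjusted p = 0.0564; range 0.00773 to 0.0564). Nlrp3, at a difference of 0.71 ± 0.20, missed the threshold by little (limma, adjusted p = 0.0505) and passed it in 6 of 16 alternatives (range 0.00677 to 0.160). Among those, the adjusted p was 0.0322 with the replicate number as a block, 0.0294 without LPS replicate 3 and 0.0141 without Control replicate 1. Il18 differed by -0.51 ± 0.22 (SE; limma, adjusted p = 0.198), Casp1 by 0.21 (0.580) and Gsdmd by -0.08 (0.623).

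Il1a, Il1b, Il1rn, Casp4 and Nlrp3 made up the 5 of 10 members whose LPS+Pilo libraries lay wholly above Control, against 14.9% of all genes tested. Il18 was the 1 member wholly below, at 2.36 to 2.68 TPM in LPS+Pilo and 3.31 to 5.26 TPM in Control, against 15.6%. Il1a was not among the genes tested, and Il1b and Casp4 passed the filter only through libraries given LPS. The count of 5 is therefore not evidence about the group.

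**Figure D3:**
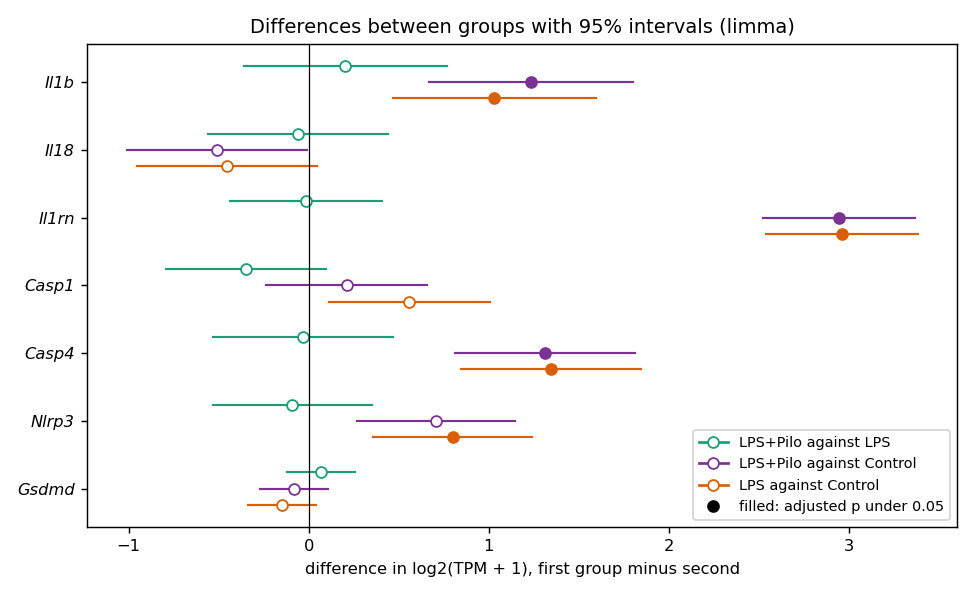
Difference in log2(TPM + 1) with its 95% interval from limma for the 7 tested members, for LPS+Pilo against LPS, LPS+Pilo against Control and LPS against Control; filled points have an adjusted p under 0.05. All 7 intervals of LPS+Pilo against LPS include 0, and both comparisons with Control place Il1rn near 3 and Casp4 near 1.3.

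Other genes of the pathway were read from a list of 51 ligands, receptors, signalling proteins, sensors, regulators, caspases and pore proteins, all found in the table, of which 26 passed the filter. With LPS, 1 of the 26 was called higher, 0 lower and 25 were not called, where 4.12% of all genes tested were called higher and 3.64% lower, so the share is near the background (2 higher and 0 lower at an unadjusted p under 0.05, limma), with a median difference of 0.08 against 0.07 over all genes tested. The called gene was Irak3, which encodes IRAK-M, a kinase-like inhibitor of signalling from IL-1 and Toll-like receptors. It had 4.21, 3.91 and 2.51 TPM in LPS, against 1.3, 0.56 and 0.86 TPM in Control. The groups did not overlap, and the difference was 1.25 ± 0.21 (SE; limma, adjusted p = 0.00598), or 1.89 with a pseudocount of 0.1. Of the Control libraries only replicate 1 reached 1 TPM, so Irak3 passed the filter through libraries given LPS. The limit stated for the counts with Il1b and Casp4 thus also holds for the count of pathway genes called higher, in both comparisons with Control.

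In LPS+Pilo against Control 1 of the 26 was called higher, 1 lower and 24 were not called, where 4.85% of all genes tested were called higher and 5.3% lower, again near the background (2 higher and 4 lower at an unadjusted p under 0.05, limma), with a median difference of 0.06 against 0.02 over all genes tested. With LPS+Pilo, Irak3 had 3.97, 3.49 and 4.62 TPM, a difference of 1.41 ± 0.21 from Control (SE; limma, adjusted p = 0.00271) and of 0.16 from LPS (0.920). Its calls against Control held in all 16 alternatives of each comparison. Txnip, whose thioredoxin-binding product is a proposed NLRP3 activator, was the 1 pathway gene called lower in LPS+Pilo against Control. It had 51.77, 42.58 and 48.31 TPM in LPS+Pilo, 59.12, 62.04 and 58.18 TPM in LPS and 71.76, 59.98 and 57.87 TPM in Control. Every LPS+Pilo library was below every library of the other groups. It fell by 0.40 against Control (limma, adjusted p = 0.0455), a call kept in only 4 of 16 alternatives (range 0.0170 to 0.163) and lost when any 1 of the 9 libraries was left out (0.0522 to 0.163), and the difference of -0.33 ± 0.11 from LPS was not called (0.540; 95% interval -0.57 to -0.08). Of the 26 pathway genes 0 were called between LPS+Pilo and LPS, with 1 higher and 1 lower at an unadjusted p under 0.05 (limma), Ninj1 and Txnip, and a median difference of -0.10 against -0.05 over all genes tested.

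Receptor transcripts were scarce. Il1r1, the signalling IL-1 receptor, was at 0.13 to 0.29 TPM in LPS+Pilo, 0.03 to 0.08 TPM in LPS and 0.03 to 0.06 TPM in Control, and the decoy receptor gene Il1r2 did not exceed 0.46 TPM in any library. Every LPS+Pilo library was above every other library for Il1r1, at levels too low for the test. Il1rl1, the receptor of IL-33, averaged 0.71 TPM in LPS+Pilo, 1.02 TPM in LPS and 1.56 TPM in Control and was not called in any comparison (limma, adjusted p = 0.852, 0.0802 and 0.311 for LPS+Pilo against LPS, LPS+Pilo against Control and LPS against Control). Il18bp, which encodes a soluble IL-18 inhibitor, stayed between 0.06 and 0.58 TPM, while the inhibitory receptor gene Sigirr was at 6.11 to 9.58 TPM and was not called. Downstream adaptor and kinase genes were present: Myd88 averaged 116 TPM in LPS+Pilo, 116 TPM in LPS and 111 TPM in Control, Irak4 averaged 4.17 TPM in LPS+Pilo, 5.24 TPM in LPS and 4.04 TPM in Control, and neither was called.

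Among other sensors, Aim2, which binds cytosolic DNA, had 10.36, 10.66 and 8.33 TPM in LPS, against 7.1, 7.2 and 7.36 TPM in Control. The groups did not overlap, but the difference of 0.38 was not called (limma, adjusted p = 0.111) except without LPS replicate 3 (0.0434). Nlrc4, the partner of the NAIP flagellin sensors, stayed at 0.26 to 0.6 TPM and was not tested. The NLRP3 cofactor gene Nek7 averaged 3.57 TPM in LPS+Pilo, 4.08 TPM in LPS and 4.01 TPM in Control, and P2rx7, the ATP-gated channel upstream of NLRP3, 6.86 TPM in LPS+Pilo, 7.96 TPM in LPS and 9.28 TPM in Control. Casp8, a caspase of cell death signalling, averaged 12.9 TPM in LPS+Pilo, 16.2 TPM in LPS and 13.1 TPM in Control. None of these 3 was called in any comparison. Ninj1, which encodes a protein of plasma membrane rupture after pore formation, was the most abundant gene of the list at 211 to 266 TPM and was not called.

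**Figure D4:**
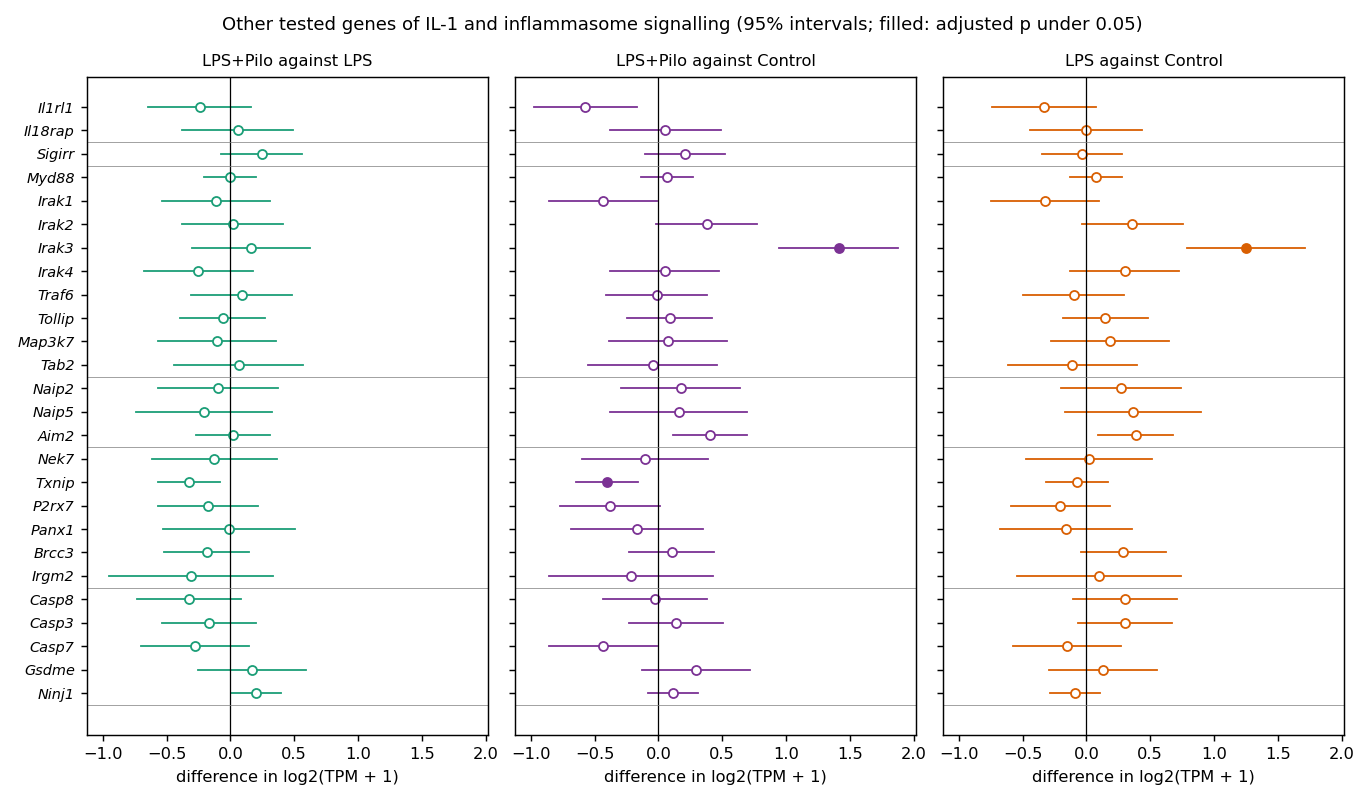
Difference in log2(TPM + 1) with its 95% interval from limma for the 26 other tested genes of the pathway, grouped by role between grey lines, in LPS+Pilo against LPS, LPS+Pilo against Control and LPS against Control from left to right; filled points have an adjusted p under 0.05. Irak3 is filled in both comparisons with Control and Txnip only in LPS+Pilo against Control.

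The genomic neighbours of the antagonist gene did not share its level. Il1f5 and Il1f10, the IL-1 family genes next to Il1rn on chromosome 2, were listed at 0 in all 9 libraries, whereas Psd4 on its other side was at 26.3 to 42.0 TPM. Il1a and Il1b are adjacent to each other elsewhere on the same chromosome. Another relative, Il1f6 (IL-36 alpha), was at 0.25 to 0.36 TPM in LPS+Pilo and 0.22 to 0.52 TPM in LPS and was listed at 0 in all 3 Control libraries.

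Genes with a like pattern were sought for 3 members over the 9 libraries, by the root mean square difference of log2(TPM + 1) after subtraction of each gene's mean. Nearest to Il1rn were the kinase gene Pim2 (0.13), which averaged 39.6 TPM in LPS+Pilo, 39.4 TPM in LPS and 4.36 TPM in Control, then Bcl3 (0.22), a nuclear inhibitor-kappa-B gene, and the chemokine gene Ccl4 (0.22). Nearest to Casp4 were Wdyhv1 (0.15), Osgin2 (0.16) and the urokinase receptor gene Plaur (0.19). Nearest to Il1b were Ddit3 (0.19), the gene of the stress factor CHOP, Osgin2 (0.20) and Gpat3 (0.21). The same measure is smaller for genes of low variance, so it ranks likeness of size as well as of shape. It also understates changes of low genes, so nearness on this scale does not mean a like ratio of TPM. Ddit3 averaged 22.5 TPM in LPS+Pilo, 17.8 TPM in LPS and 9.31 TPM in Control, against 1.77, 1.31 and 0.137 TPM for Il1b. Plaur averaged 131, 138 and 59.5 TPM in the same order, against 3.4, 3.57 and 0.753 TPM for Casp4.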

How the data were processed

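Total RNA of 9 BV2 libraries was sequenced. The authors deposited 1 table of TPM, 1 column per library, each with the same total, rounded to 2 decimals. The submitters' processing notes name GRCm39 and the tools fastp (0.19.5), STAR (2.7.1a) and DESeq2 (1.24.0). Not given in the sources used here: the program that made TPM, the annotation, the strand setting and the handling of reads with several matches. TPM are shares and hold no counts, so depth and counting error are unknown. No count test was used.

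Symbols came by Ensembl identifier from GENCODE M21 (52081 matched); all 10 members matched. The 11260 genes reaching 1 TPM in 3 or more libraries were fitted together with limma 3.58.1 (R 4.3.3) on log2(TPM + 1), which understates changes of low genes, with 1 mean per group, a variance trend and 6 residual degrees of freedom. Tests were two-sided, with Benjamini-Hochberg adjustment over all genes tested and an adjusted p under 0.05 as the threshold. The fit was run on simulated data with known changes and independent noise. Those data held neither shared shifts of whole libraries nor a lower limit of expression, so the run does not bear on either. Named were the 10 members, the pathway genes called in any comparison, 13 always-named pathway genes and 3 nearest genes for each of 3 members; Ninj1, Casp12, the guanylate-binding protein genes and the other genes at 0 or near 0 were chosen after their values were seen. Members and lists were chosen with earlier results of these data known, and the motifs after the sequences were seen. Of 10 members, 9 had a RefSeq promoter. Same-numbered libraries were not treated as pairs. Alternatives were another pseudocount, no filter, quantile normalization, median ratio scaling, only the 2 groups compared, no variance trend, the replicate number as a block and leaving out each library.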

Additional observations from a re-analysis of the deposited data

How the results depend on the processing

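Over 16 alternatives and 3 comparisons no member reversed a call; 16 member values lost a call and 7 gained one. With LPS against Control, 874 genes were called in all, 1516 with quantile normalization (614 higher and 902 lower, against 464 and 410) and 486 with only the 2 groups; leaving out 1 library gave 414 to 1020. Called members were 4, 2 with no filter, and 2 to 4 leaving out 1 library. With LPS+Pilo against LPS, 5 genes were called (1 higher, 4 lower), 1 with no filter, 1 with quantile normalization (1 higher, 0 lower), 2 with median ratio scaling, 3 with only the 2 groups, 3 with no variance trend and 0 to 6 leaving out 1 library; called members stayed at 0. With LPS+Pilo against Control, 1143 genes were called, 1726 with quantile normalization and 642 to 1286 leaving out 1 library; called members were 3, and 2 to 4 leaving out 1 library. The causes were not tested. Scaling moved the median of all genes by at most 0.08 in size (log2).

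With the replicate number as a block, calls were 808, 1 and 1064 of all genes and 4, 0 and 4 of the members in the order above. Deviations of same-numbered libraries correlated at -0.225 to 0.165, and libraries did not all correlate best with their own number, so the numbers were not taken to pair them. Low levels limit Il1a, Il1rap and Pycard, which only the fit with no filter could test, without a call.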

Other observations

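Of the 51 pathway genes, 25 were below the filter. Il33, Il1f5, Il1f8, Il1f10, Nlrp6, Mefv, Casp12 and Gsdmc were listed at 0 in all 9 libraries. The interferon-inducible guanylate-binding protein genes, which act on caspase-11 activation in mice, were low: Gbp2 was at 0.24 to 0.42 TPM in LPS+Pilo, 0.44 to 0.89 TPM in LPS and 0.2 to 0.68 TPM in Control, and Gbp5 did not exceed 0.09 TPM. These values were not tested in the main fit. With no filter 43 pathway genes were tested. Of these, 2 were called higher and 0 lower in LPS against Control. Over all 21250 genes of that fit, 351 were called higher and 369 lower. In LPS+Pilo against Control 2 pathway genes were likewise called higher and 0 lower, against 477 and 525 over all genes. Irak3 was 1 of the 2 in each, and the other was a gene below the filter. Between LPS+Pilo and LPS 0 were called.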
